A study of Homo sapiens with 36 samples.

Results

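A set of 10 genes of the Notch pathway was followed through neuron induction in human cells that carry or lack a working RAI1 gene: the ligand genes DLL1, DLL3, DLL4 and JAG1, the receptor genes NOTCH1 and NOTCH2, and the HES and HEY family genes HES1, HES5, HES6 and HEY1. They were taken by gene symbol, and all 10 were found among the 62710 genes of the deposited tables. The cells were H9, an established line of human embryonic stem cells, turned into neurons (iNeurons) by doxycycline-driven NGN2, the proneural protein encoded by NEUROG2, and ribosomal RNA was removed from their total RNA before sequencing. Cells labelled WT, RAI1 Het (RAI1+/-, written HET here) and RAI1 Knockout (RAI1-/-, written KO) were harvested on days 0, 3 and 7 of that induction, which all 9 groups share, with 4 replicates in each group, which makes 36 libraries. The protein that RAI1 encodes binds chromatin and regulates transcription. The labels call the replicates biological, but they do not say how many edited clones stand behind HET and KO.

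Notch signalling passes between neighbouring cells. Delta and Jagged ligands on one cell bind Notch receptors on the next, the receptor is cut, and its freed inner part joins the DNA-binding protein RBPJ and switches on repressors of the HES and HEY families. Those repressors hold back proneural factors such as NEUROG2, while proneural factors switch on Delta genes, so that a cell on its way to becoming a neuron carries ligand and its neighbours stay progenitors. DLL3 differs from the other Delta proteins in acting inside the cell that makes it, as an inhibitor. HES6 differs from HES1 and HES5 in opposing HES1 and favouring neuronal differentiation.

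In the GENCODE 29 annotation of GRCh38, DLL1 (ENSG00000198719) lies at chr6:170282206-170306565 on the minus strand, DLL3 (ENSG00000090932) at chr19:39498895-39508481 on the plus strand, DLL4 (ENSG00000128917) at chr15:40929333-40939073 on the plus strand and JAG1 (ENSG00000101384) at chr20:10637684-10673999 on the minus strand. NOTCH1 (ENSG00000148400) lies at chr9:136494433-136545786 and NOTCH2 (ENSG00000134250) at chr1:119911553-120069626, both on the minus strand. HES1 (ENSG00000114315) lies at chr3:194136145-194138732 on the plus strand, HES5 (ENSG00000197921) at chr1:2528745-2530245 and HES6 (ENSG00000144485) at chr2:238238267-238240662, both on the minus strand. HEY1 is ENSG00000164683. The counts are per whole gene.

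The start-site regions of HES1, HES5 and HES6 are shown because these related factors moved in different ways in the libraries described below. Each is the 250 bases before the gene start in RefSeq (GRCh38.p14), written 5′ to 3′ on the strand of the gene. Capitals mark the core letters of the RBPJ motif, TGGGAA, searched on both strands (TTCCCA is the same core on the other strand). HES1 lies at chr3:194135898-194136147 on the plus strand, HES5 at chr1:2530264-2530513 on the minus strand and HES6 at chr2:238240039-238240288 on the minus strand. The RefSeq start of HES6 lies inside the longer GENCODE 29 gene given above, so that its window is within the gene as counted, not before it.
HES1: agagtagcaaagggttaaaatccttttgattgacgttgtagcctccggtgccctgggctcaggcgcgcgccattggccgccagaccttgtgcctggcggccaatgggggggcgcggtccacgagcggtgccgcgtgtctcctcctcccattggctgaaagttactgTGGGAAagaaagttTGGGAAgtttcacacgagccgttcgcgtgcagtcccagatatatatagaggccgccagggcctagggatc
HES5: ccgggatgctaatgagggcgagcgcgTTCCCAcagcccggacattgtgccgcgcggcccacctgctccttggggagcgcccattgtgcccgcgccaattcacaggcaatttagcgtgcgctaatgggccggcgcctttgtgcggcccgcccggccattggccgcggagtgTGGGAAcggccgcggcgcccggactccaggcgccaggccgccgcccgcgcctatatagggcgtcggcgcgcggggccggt
HES6: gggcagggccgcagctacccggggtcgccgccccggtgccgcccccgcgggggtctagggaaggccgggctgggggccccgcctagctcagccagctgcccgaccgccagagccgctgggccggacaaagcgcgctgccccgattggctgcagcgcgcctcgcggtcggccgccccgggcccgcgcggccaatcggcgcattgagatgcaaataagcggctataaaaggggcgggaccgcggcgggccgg

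HES1 held the RBPJ core 2 times, at -84 and -70 from the gene start and in the same orientation. HES5 also held it 2 times, at -224 and -80, in opposite orientations. The HES6 window held none, nor did those of DLL4, JAG1, NOTCH1 and NOTCH2. At least 1 core was found in 20.8% of 35116 RefSeq windows of this length, and 2 or more in 2.9%. The N box, CACNAG, which HES proteins bind, was found 3 times in the HES1 window (at -165, -132 and -58, none of them overlapping an RBPJ core), in none of the other 6 windows, and in 32% of all windows. The E box letters CAGATG, bound by proneural factors, were in none of the 7 windows and in 12.2% of all windows. These matches describe letters only. Windows were at hand for 7 of the 10 genes, not for DLL1, DLL3 or HEY1.

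Library totals ran from 23948079 to 56678796 counts. Levels in a library are given as CPM (the count divided by the library's total, on the usual scale), and levels of different genes are compared in TPM, which is also scaled by gene length. Counts of RAI1 were not lower in HET or KO (36.1 ± 8.99 CPM in WT at day 0, 40.3 ± 14.1 in KO; at day 7, 48.4 ± 14.1 and 78.4 ± 11.9; SD, n = 4), so they give no check of the labels. Marker genes of pluripotent cells were high at day 0 (summed CPM of 5 genes 2200.5 to 4235.8 over the 12 libraries), and 6 neuron markers summed to 4948.2 to 12871.2 CPM at day 7. At day 0, replicate 2 of each genotype had the lowest pluripotency marker sum and the highest fibroblast marker sum of its group. The fibroblast sums were 1219.4 CPM in WT, 1553.3 in HET and 1607.6 in KO. These libraries also had the highest JAG1, NOTCH1 and HEY1 values of their groups, and the part of this in those values was not tested. HET day 7 replicate 1 stood apart in its group, with 27.5% of its counts in 5 small structural RNAs. The other HET libraries of that day had 2.84% to 13.4%. On the same day this share was 14.5% to 25.6% in WT and 9.90% to 15.8% in KO, so it also differed between genotypes. Fits with this share as a covariate are among the alternatives below. WT day 7 replicate 1 had the lowest neuron marker sum of its group (4948.2 CPM, others 8467.4 to 9908.3). Its proliferation marker sum was the highest (167.0 CPM, others 22.7 to 88.3). It had the lowest DLL1, DLL3, JAG1, NOTCH1 and HEY1 values of its group and the highest DLL4, HES1 and HES6 values. The part of its marker sums in those values was not tested. At day 3, replicate 4 of each genotype had the highest DLL1 and HES1 values of its group and the lowest neuron marker sum (1163.6 CPM in WT, 1624.3 in HET, 3872.8 in KO). In WT and HET it also had the highest fibroblast marker sum (549.9 CPM and 852.3 CPM), and the part of this in its DLL1 and HES1 values was not tested. Differences were tested with edgeR's quasi-likelihood test on counts, with Benjamini-Hochberg adjustment over all genes tested, and a gene passed at an adjusted p under 0.05. Differences are log2 values with their standard error (SE). HET and KO are compared with the same WT libraries, so their results share those controls. In bulk RNA, fewer cells of a type and less RNA per cell cannot be told apart.

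In WT cells, induction turned the pattern of these genes over. At day 3 the Delta genes and HES6 had risen, while JAG1, NOTCH2, HES5 and HEY1 had fallen. Of the 10 genes, 4 were higher and 4 lower at day 3 than at day 0, where 60.0% of all genes tested passed. From day 3 to day 7 all 10 passed, 3 higher and 7 lower, where 46.2% of all genes passed. So large a share of all genes changed over time that these counts say little about the Notch genes as a group.

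DLL3 rose most. Its WT libraries had 19.2, 26.8, 11.8 and 22.1 CPM at day 0 (replicates 1 to 4) and 1115.8, 942.5, 1002.7 and 1268.5 CPM at day 3. These groups were far apart (log2 difference 5.88, SE 0.42, edgeR adjusted p = 4.11e-08). By day 7 DLL3 had dropped again to 88.1, 157.2, 129.7 and 322.2 CPM, below every day 3 library and above every day 0 library (day 7 minus day 3, -2.52, SE 0.36, edgeR adjusted p = 4.76e-05). HES6 followed the same course, with 17.1 to 27.5 CPM at day 0, 502.0 to 878.6 at day 3 and 124.9 to 220.9 at day 7. The differences of HES6 were 5.18 (SE 0.28) from day 0 to day 3 and -2.0 (SE 0.24) from day 3 to day 7. DLL1 (8.17-fold) and DLL4 (17-fold) also rose to day 3 and fell afterwards, by 3.91 and 1.3 on the log2 scale. The later fall of DLL4 did not pass without WT day 7 replicate 2 (adjusted p = 0.0719) or without replicate 3 (0.0595).

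JAG1 ran the other way. It had 67.4 to 126.8 CPM at day 0, 6.33 to 26.6 at day 3 and 32.0 to 128.3 at day 7 in WT, a fall of 2.58 (SE 0.47) and then a rise of 2.77 (SE 0.47) on the log2 scale. HEY1 fell and rose likewise (-1.3, then 2.14), and so did HES5 (-4.60, then 2.38), although HES5 was at 0 to 9 counts in the WT day 3 libraries. The receptors fell. NOTCH2 went from 313.0 ± 53.0 CPM at day 0 to 119.8 ± 32.6 at day 3 and 56.8 ± 17.8 at day 7 (SD, n = 4), and passed at each step. NOTCH1 did not pass from day 0 to day 3 (207.7 ± 33.0 to 139.0 ± 39.1 CPM, adjusted p = 0.313) and was lower at day 7 (49.7 ± 31.9 CPM, -1.36, SE 0.41). With the share of small structural RNAs as a covariate, the day 7 calls of NOTCH1 (-0.83, adjusted p = 0.0895) and HES5 (1.95, adjusted p = 0.0536) were lost, and that of HES5 also by limma on log2(TPM + 1) (adjusted p = 0.608). HES1 had 13.9 to 19.7 CPM at day 0. At day 3 it had 1.71, 1.68, 3.49 and 12.7 CPM, each below every day 0 library, with an adjusted p of 0.0692. Without replicate 4 of day 3, the HES1 difference was -2.73 and passed (adjusted p = 0.00201), and with all 4 it passed by limma on log2(TPM + 1) (adjusted p = 4.33e-06). HES1 was lower again at day 7 than at day 3, with overlap between the libraries (-2.87, SE 0.79, and -1.70 without day 3 replicate 4, adjusted p = 0.0408).

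On the TPM scale the receptors led at day 0 in WT and DLL3 and HES6, which overlapped, at day 3. At day 0 the order was NOTCH2 (mean 21.4 TPM), NOTCH1 (16.7), JAG1 (14) and HES6 (13.5), then HES1 (8.88), DLL3 (7.78) and DLL1 (4.88), then HEY1 (1.92) and HES5 (1.75), and last DLL4 (0.36). Neighbours in this order overlapped between libraries, except HES6 with HES1, DLL1 with HEY1, and HES5 with DLL4. At day 3 DLL3 (230.0 TPM) and HES6 (228.3 TPM) overlapped, HES6 lay above DLL1 (17.8 TPM) without overlap, and DLL1 likewise lay above NOTCH1 (7.13 TPM). HES5 was last at 0.035 TPM. At day 7 HES6 (44.9 TPM) and DLL3 (31.6 TPM) overlapped, DLL3 lay above JAG1 (6.56 TPM), and below JAG1 each neighbour in the order overlapped the next. In KO at day 7 DLL3 (21.4 TPM) and HES6 (10.9 TPM) no longer overlapped, HEY1 came next at 4.88 TPM, and NOTCH2 at 0.198 TPM overlapped HES5 (0.212 TPM) near the end of the order.

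**Figure D1:**
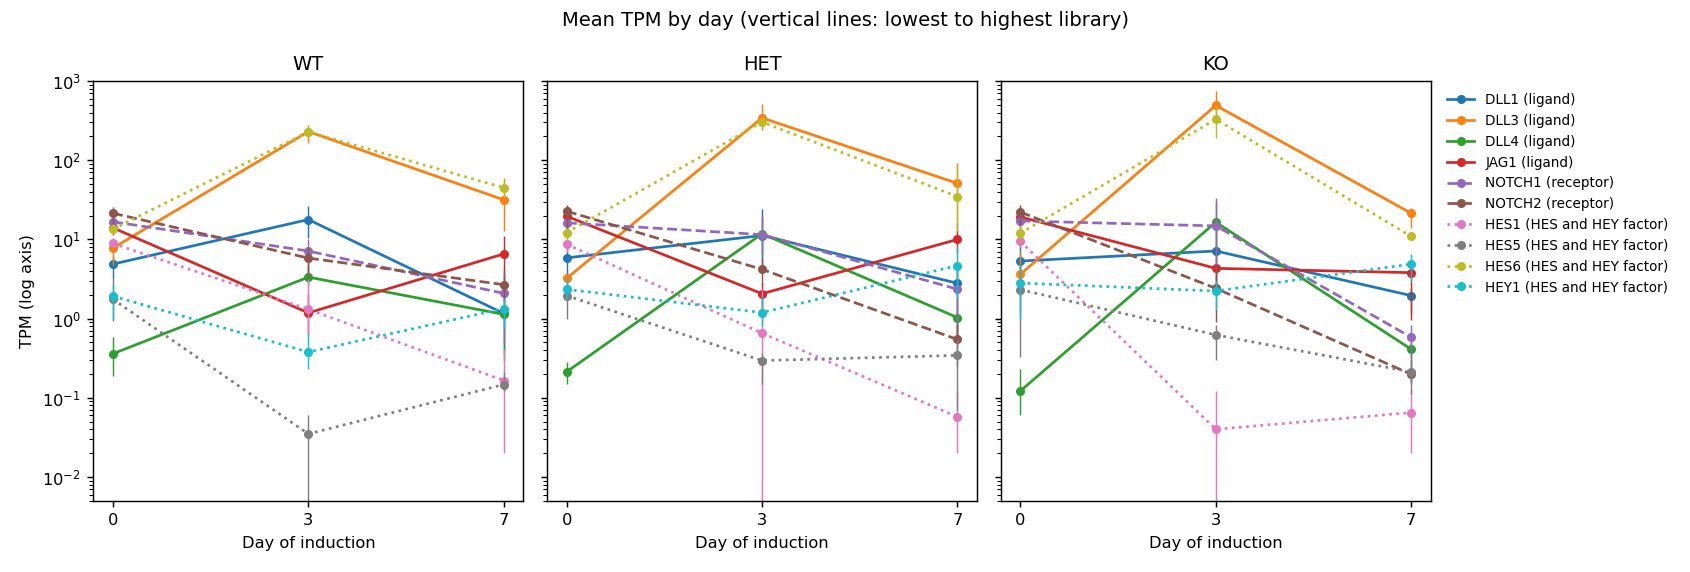
Mean TPM (log axis) of the 10 genes by day of induction in WT, HET and KO; solid lines are ligands, dashed lines receptors and dotted lines HES and HEY factors, and vertical lines span the lowest to the highest of 4 libraries, running to the lower edge where a library is at 0. DLL3 and HES6 peak at day 3 in all 3 genotypes, and NOTCH2 ends at 2.68 TPM in WT, 0.545 in HET and 0.198 in KO.

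At day 0 none of the 10 genes passed edgeR's test between genotypes. KO minus WT gave 0 passing genes, where 2.08% of all genes tested passed. HET minus WT gave 0 (1.63% of all genes) and KO minus HET gave 0 (0.856%). At an unadjusted p under 0.05 there were 2, 1 and 0 genes, DESeq2 called 1, 1 and 0, and limma on TPM called 0 in each. The share of all genes at that unadjusted p is not given here. The gene DESeq2 called was DLL3 in both comparisons with WT. WT had 19.2, 26.8, 11.8 and 22.1 CPM of DLL3, HET 7.44, 6.91, 6.89 and 9.30, and KO 2.71, 7.85, 13.6 and 10.3. All HET libraries were thus below all WT libraries, while KO overlapped WT (HET minus WT -1.38, SE 0.38, edgeR adjusted p = 0.123; KO minus WT -1.20, SE 0.38, adjusted p = 0.155). DLL4 had 0.711 to 2.99 CPM in WT and 0.231 to 1.06 in KO (-1.51, SE 0.50, adjusted p = 0.178). The receptors lay close together: NOTCH2 differed from WT by 0.07 (SE 0.17) in KO and by 0.04 (SE 0.17) in HET. NEUROG2, the gene of the induction factor, was already lower in KO (2.02 ± 0.375 CPM) than in WT (23.0 ± 10.9; SD, n = 4), with edgeR adjusted p = 0.000168, and had 8.55 ± 3.36 CPM in HET (adjusted p = 0.0711 against WT).

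**Figure D2:**
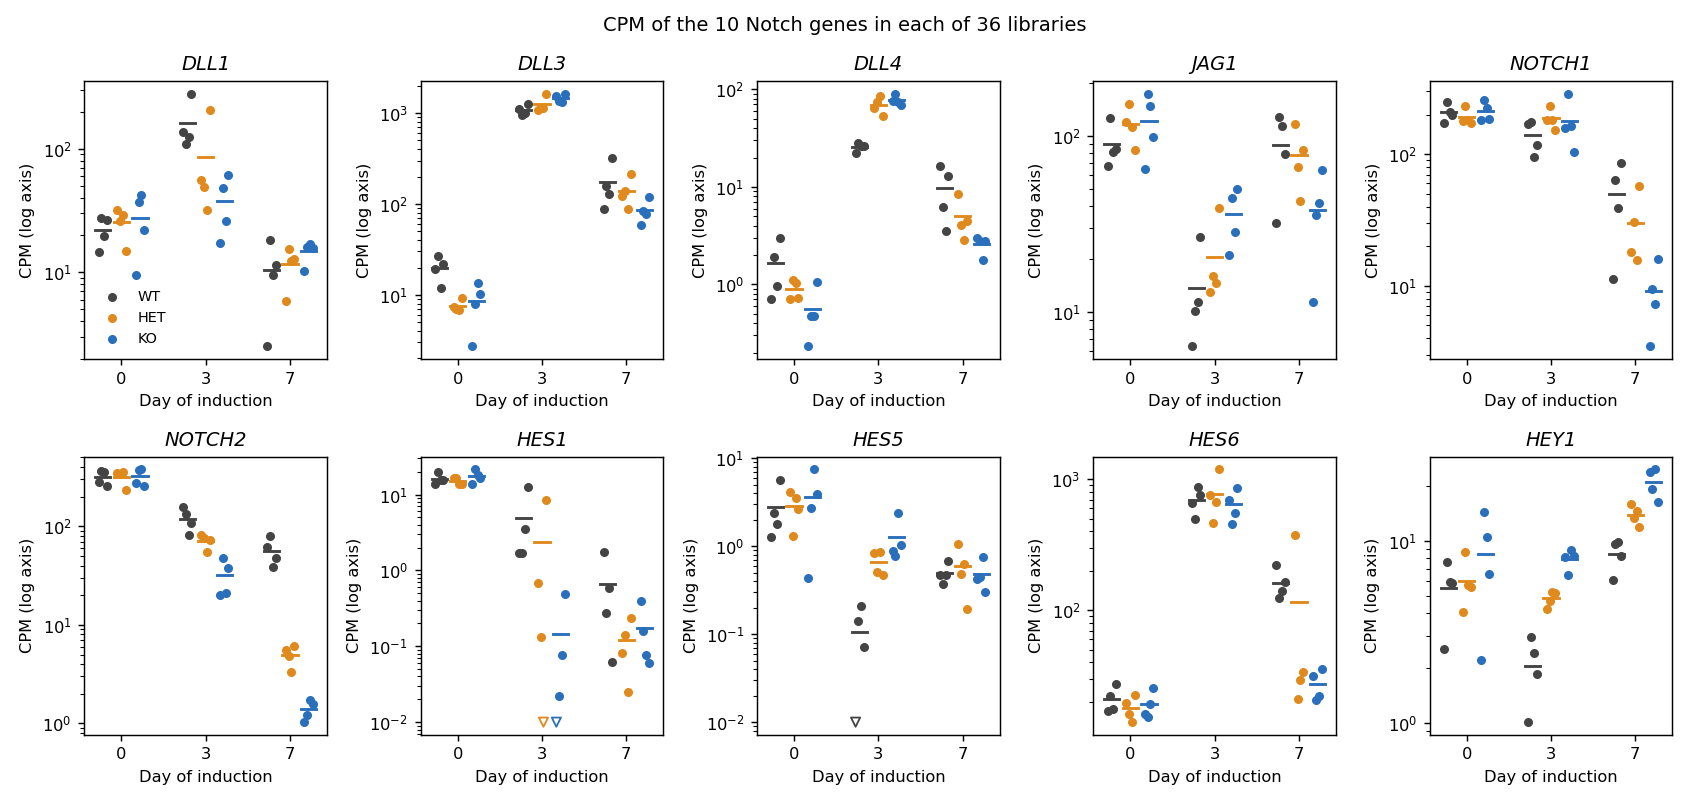
CPM (log axis) of each of the 10 genes by day of induction; each point is 1 library, bars are means of 4, and open triangles at the bottom mark libraries with a count of 0. At day 0 the genotypes overlap for each gene except DLL3, where HET lies below WT. NOTCH2 and HEY1 are ordered by genotype at days 3 and 7.

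At day 3, KO cells had more DLL4, HES5 and HEY1 and less DLL1, NOTCH2 and HES1 than WT. These are 6 of the 10 genes, 3 in each direction, where 21.6% of all genes tested passed, and the median difference of the 10 was 0.41 against -0.05 over all genes. In HET 3 passed, all higher (DLL4, HES5 and HEY1), where 3.28% of all genes passed. Between KO and HET 1 passed, NOTCH2, lower in KO, where 4.35% of all genes passed. Same-numbered libraries of KO and WT (correlations of 0.136 to 0.598), and of HET and WT (0.17 to 0.802), varied together at this day. Fits with the replicate number as a block take them as pairs, which is an assumption. With the replicate number as a block 8 genes passed in KO minus WT (37.7% of all genes), adding DLL3 and JAG1, and 4 in HET minus WT (8.79% of all genes), adding DLL1. By limma on log2(TPM + 1), DLL4, HES5 and HEY1 passed in KO, while DLL1, NOTCH2 and HES1 had adjusted p of 0.193, 0.186 and 0.118 and the 3 HET calls 0.525 to 0.978.

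DLL4, a Delta ligand, was higher in both mutant genotypes at day 3. WT libraries had 22.1, 28.0, 26.2 and 26.2 CPM, HET 64.9, 74.6, 86.1 and 53.8, and KO 76.0, 90.3, 73.6 and 69.8. Both mutant genotypes were above every WT library and overlapped each other. The differences were 1.45 (SE 0.16, edgeR adjusted p = 0.000151) for HET minus WT and 1.6 (SE 0.16, adjusted p = 2.25e-05) for KO minus WT, and KO differed from HET by 0.15 (SE 0.16, adjusted p = 0.655). Every fit that left out 1 library kept both calls against WT.

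DLL1, another Delta ligand, was lower in KO. It had 137.2, 110.0, 124.3 and 279.1 CPM in WT, 55.4, 48.8, 31.7 and 205.9 in HET and 17.1, 48.1, 26 and 60.8 in KO. All KO libraries were below all WT libraries (-2.09, SE 0.62, edgeR adjusted p = 0.0277). HET overlapped WT through its replicate 4 (-0.90, SE 0.60, adjusted p = 0.564). Without that library the HET difference was -1.92 and passed (adjusted p = 0.0283), and with the block it was -1.18 (SE 0.30, adjusted p = 0.0289). The KO call was lost without WT replicate 4 (adjusted p = 0.0909) and without KO replicates 1 (0.0793), 2 (0.0597) or 3 (0.0756), and with the block it was -2.11 (SE 0.31, adjusted p = 0.000254).

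DLL3, the Delta gene that acts within its own cell, had 942.5 to 1268.5 CPM in WT and 1322.4 to 1630.8 in KO, without overlap (0.45, SE 0.22, edgeR adjusted p = 0.157; with the block 0.46, SE 0.13, adjusted p = 0.0138). JAG1 had 6.33, 10.1, 11.3 and 26.6 CPM in WT and 21.1, 44.2, 28.4 and 49.7 in KO, so that WT replicate 4 reached into the KO range. Its difference was 1.39 (SE 0.51, edgeR adjusted p = 0.0656), 1.55 with the block (SE 0.19, adjusted p = 8.59e-05) and 2.04 without WT replicate 4 (adjusted p = 0.0105).

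Of the receptors, NOTCH2 was lower and NOTCH1 was not at day 3. NOTCH2 had 156.5, 133.4, 80.9 and 108.2 CPM in WT, 80.7, 76.8, 54.3 and 73.2 in HET and 20.1, 48.1, 21.3 and 37.7 in KO. Neighbouring groups did not overlap, although the highest HET library lay just under the lowest WT library. KO minus WT was -1.89 (SE 0.28, edgeR adjusted p = 0.000431) and KO minus HET -1.16 (SE 0.28, adjusted p = 0.0319), while HET minus WT was -0.73 (SE 0.27, adjusted p = 0.216; with the block adjusted p = 0.0575). The KO against HET call was lost without HET replicates 1 (adjusted p = 0.1), 2 (0.0667) or 4 (0.0619) and without KO replicates 1 (0.0854) or 3 (0.105). NOTCH1 had 94.9 to 175.0 CPM in WT, 152.6 to 233.8 in HET and 104.5 to 288.4 in KO, all overlapping (KO minus WT 0.36, SE 0.25, adjusted p = 0.314).

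The HES and HEY factors split at day 3. HEY1, a Notch target that encodes a repressor, had 1.0, 2.95, 2.43 and 1.86 CPM in WT, 4.23, 4.67, 5.22 and 5.16 in HET and 8.11, 6.48, 8.94 and 8.19 in KO. No group overlapped another. KO minus WT was 1.97 (SE 0.31, edgeR adjusted p = 0.000577), HET minus WT 1.23 (SE 0.30, adjusted p = 0.0412) and KO minus HET 0.73 (SE 0.30, adjusted p = 0.2). The HET call passed without WT replicate 2 or HET replicate 4, and was lost without each of the other 6 libraries (largest adjusted p = 0.118, without HET replicate 3).

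HES5, whose window with 2 RBPJ cores is printed above, was low but higher in the mutants. The libraries held 0, 6, 9 and 3 counts in WT, 33, 19, 49 and 15 in HET and 34, 35, 93 and 47 in KO, that is 0.00 to 0.211 CPM, 0.469 to 0.865 and 0.780 to 2.37. WT did not overlap either mutant genotype, and HET overlapped KO. KO minus WT was 3.62 (SE 0.68, edgeR adjusted p = 0.00213) and HET minus WT 2.67 (SE 0.68, adjusted p = 0.0496). The HET call was kept without HET replicate 4 and lost without each of the other 7 libraries (largest adjusted p = 0.141, without HET replicate 3). With the block it was 2.79 (SE 0.57, adjusted p = 0.00948).

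HES1, with the other window of 2 cores, went down. It had 88, 72, 149 and 533 counts in WT, 27, 5, 0 and 275 in HET and 0, 1, 3 and 22 in KO. All KO libraries were below all WT libraries, and within each genotype replicate 4 was the highest. The KO difference was -5.00 with a wide SE of 1.63 (edgeR adjusted p = 0.0426), and with the block -5.77 (SE 0.95, adjusted p = 0.000588). It passed without WT replicate 2 or KO replicate 4 and was lost without each of the other 6 libraries (largest adjusted p = 0.124, without WT replicate 4). HET minus WT was -1.04 (SE 1.31, adjusted p = 0.798). HES6 overlapped between all genotypes at 459.6 to 1192.4 CPM (KO minus WT -0.10, SE 0.33; HET minus WT 0.16, SE 0.33).

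At day 7, KO cells had less of both receptors and of DLL3, DLL4 and HES6 than WT, and more HEY1. These are 6 of 10 genes, 5 of them lower, where 32.6% of all genes tested passed, with a median difference of -1.56 over the 10 against -0.04 over all genes. In HET 1 gene passed, NOTCH2, where 14.4% of all genes passed. Without HET replicate 1, the library with most small structural RNA, 3 passed (NOTCH2, HES6 and DLL4, all lower), where 34.6% of all genes passed. KO minus HET gave 1, again NOTCH2, where 1.40% of all genes passed. By limma on log2(TPM + 1), NOTCH2 and HES6 passed in KO, HEY1 (adjusted p = 0.0858), DLL4 (0.273), NOTCH1 (0.309) and DLL3 (0.782) did not, and the KO against HET call of NOTCH2 was lost (0.692).

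NOTCH2 had the largest difference from WT among the 10 genes at day 7, in KO and in HET. It had 61.0, 79.8, 39.1 and 47.3 CPM in WT, 5.51, 4.87, 3.30 and 6.05 in HET and 1.03, 1.21, 1.72 and 1.59 in KO. The 3 groups were well apart from each other. HET minus WT was -3.53 (SE 0.27, edgeR adjusted p = 6.3e-06), KO minus WT -5.34 (SE 0.30, adjusted p = 2.53e-07) and KO minus HET -1.81 (SE 0.27, adjusted p = 0.00421), that is 11.5-fold, 40.5-fold and 3.51-fold lower. Leaving out any 1 library moved the HET difference between -3.73 and -3.34 and the KO difference between -5.45 and -5.20. Reads of NOTCH2 can be shared with the near-identical NOTCH2NL copies, and how they were divided is not given in the sources used here. NOTCH2NLA was lower as well at day 7 (34 ± 8.90 CPM in WT, 5.84 ± 0.854 for HET and 2.06 ± 0.901 for KO, SD, n = 4). NOTCH2NLC differed less, with 7.76 to 20.1 CPM in WT, 6.81 to 9.52 in HET, which overlapped WT, and 3.10 to 5.44 in KO. Summed over NOTCH2 and 4 NOTCH2NL genes, the level was 90.1 to 164.9 CPM in WT, 19.2 to 24.4 in HET and 6.14 to 11.2 in KO, with the same order and no overlap.

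NOTCH1 had 11.2, 63.4, 39.1 and 85.2 CPM in WT at day 7, 18.0, 30.3, 15.6 and 57 in HET and 3.46, 9.49, 7.26 and 16.1 in KO. WT replicate 1, which had the lowest neuron marker sum of its group, lay inside the KO range. KO minus WT was -2.46 (SE 0.60, edgeR adjusted p = 0.00753) and passed in each of the 8 fits that left out 1 library, while HET minus WT was -0.78 (SE 0.57, adjusted p = 0.396). Antisense genes overlap NOTCH1 and JAG1, and other annotated genes overlap DLL1, HES5 and HES6. The use of strand in counting is not given in the sources used here, so reads of such pairs cannot be told apart.

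Among the ligands at day 7, DLL4 had 16.2, 6.2, 3.53 and 12.8 CPM in WT, 8.50, 4.10, 2.82 and 4.46 in HET and 3.01, 2.77, 1.78 and 2.77 in KO. The mutants that had been above WT at day 3 were now at or below it, KO without overlap (-1.91, SE 0.49, edgeR adjusted p = 0.0104) and HET with overlap (-0.93, SE 0.48, adjusted p = 0.216; without HET replicate 1 -1.53, SE 0.44, adjusted p = 0.0194). DLL3 had 88.1 to 322.2 CPM in WT and 58.7 to 120.0 in KO, which overlap (-1.05, SE 0.38, adjusted p = 0.0494). The DLL3 call passed without WT replicate 1 or KO replicate 4 and was lost without each of the other 6 libraries (largest adjusted p = 0.198, without WT replicate 4, with a difference of -0.55). JAG1 had 32.0, 128.3, 114.8 and 79.3 CPM in WT and 11.4, 35.7, 41.3 and 64.2 in KO (-1.23, SE 0.52, adjusted p = 0.0852). It passed by DESeq2 (adjusted p = 0.0422), in 1 fit of all 36 libraries (0.0488), and without WT replicate 1 (0.0402) or KO replicate 4 (0.0494). DLL1 overlapped between all genotypes at 2.51 to 18.2 CPM.

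HEY1 was again ordered by genotype at day 7, with 6.05, 9.60, 9.84 and 8.20 CPM in WT, 15.8, 13.3, 14.6 and 11.9 in HET and 23.9, 19.3, 24.6 and 16.3 in KO. The 3 groups did not overlap. KO minus WT was 1.31 (SE 0.22, edgeR adjusted p = 0.00092), HET minus WT 0.69 (SE 0.22, adjusted p = 0.054) and KO minus HET 0.62 (SE 0.22, adjusted p = 0.229). Of the 4 HES and HEY factors, HEY1 was the one that passed as higher in KO at both day 3 and day 7. The HET difference passed by DESeq2 (adjusted p = 0.0255), with library size alone (0.0277), with the small RNA share as a covariate (0.0393) and without WT replicate 3 (0.0449).

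HES6 had 220.9, 124.9, 140.5 and 165.2 CPM in WT, 378.7, 21.2, 29.2 and 34 in HET and 31.3, 20.5, 22.1 and 35.4 in KO. HET replicate 1 was the highest of the 12 libraries, while the other 3 HET libraries lay in or near the KO range. KO minus WT was -2.59 (SE 0.84, edgeR adjusted p = 0.0316). HET minus WT was -0.33 (SE 0.79, adjusted p = 0.828) with all libraries and -2.71 (SE 0.28, adjusted p = 7.1e-05) without HET replicate 1. The fit of a day shares its spread over the 3 genotypes, and the KO call was kept without WT replicate 2 and lost without each of the other 7 WT or KO libraries (largest adjusted p = 0.0848, without KO replicate 2). HES1 had 2 to 62 counts in WT and KO libraries of day 7 and 1 to 6 in HET, and HES5 had 5 to 53 counts in all 12. Neither passed (KO minus WT -1.89, SE 0.86, adjusted p = 0.11 for HES1 and -0.08, SE 0.50, adjusted p = 0.914 for HES5). HES1 passed without WT replicate 4, with -2.27 in KO (adjusted p = 0.041) and -2.95 in HET (adjusted p = 0.0347).

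**Figure D3:**
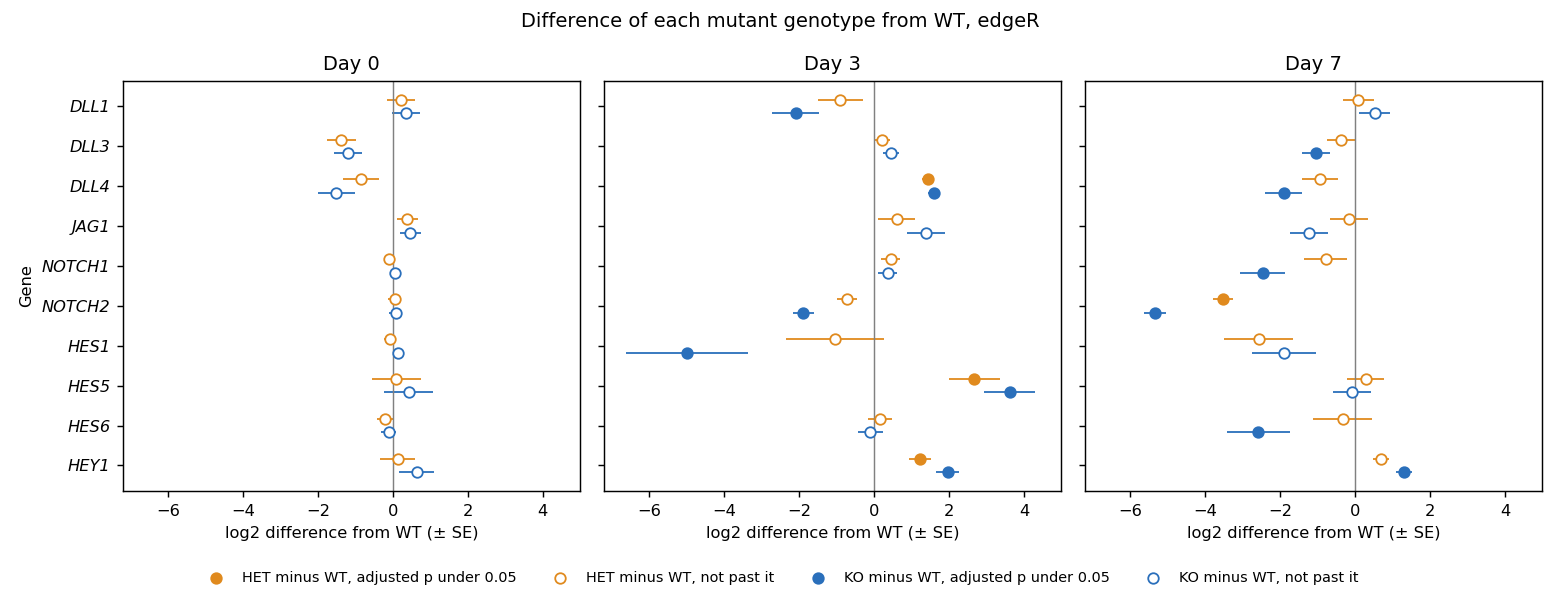
Log2 difference of HET (orange) and KO (blue) from WT with its SE for the 10 genes on days 0, 3 and 7; filled points passed edgeR's test. No point is filled at day 0, 6 KO and 3 HET points are filled at day 3, and 6 KO points and 1 HET point at day 7, where NOTCH2 in KO lies at -5.34.

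Whether the course over time differed by genotype was tested on all 36 libraries. From day 0 to day 3, KO and WT differed in 6 of the 10 genes, where 8.55% of all genes tested passed. DLL4 rose 3.16 more (SE 0.62, edgeR adjusted p = 0.00136) and DLL3 1.70 more in KO than in WT, and HES5 fell less (3.25). DLL1 rose less (-2.38), NOTCH2 fell further (-1.90, SE 0.35, adjusted p = 0.000659) and HES1 fell further (-5.09, SE 1.45, adjusted p = 0.0245). Of these, NOTCH2 and DLL4 passed in all 16 fits that left out 1 library. HES1 was lost in 4 of them, HES5 in 5, DLL3 in 7 and DLL1 in 9, with the largest adjusted p of 0.118 for DLL1 without WT day 3 replicate 4. The change of HEY1 differed by 1.38 (SE 0.51, adjusted p = 0.0893) and did not pass. It passed without WT day 0 replicate 1 (adjusted p = 0.0488) or KO day 0 replicate 2 (0.0329). With the replicate number as a block it also passed (1.5, SE 0.47, adjusted p = 0.0365), where 10.3% of all genes passed. That block also takes same-numbered libraries of different days as pairs. Between days 0 and 3 these correlated by -0.077 to 0.097 in WT and -0.005 to 0.105 in KO, not all over 0.1. By limma on log2(TPM + 1) DLL4 alone of the 6 passed.

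From day 3 to day 7, KO and WT differed in 8 of the 10 genes (18.5% of all genes), 7 of them with a more negative change in KO. The change of DLL4 differed by -3.53 (SE 0.57, edgeR adjusted p = 3e-05), that of NOTCH2 by -3.48 (SE 0.37, adjusted p = 4.54e-08) and that of NOTCH1 by -2.85 (SE 0.58, adjusted p = 0.000517). HES5 (-3.72) and JAG1 (-2.64), which rose in WT, and HES6 (-2.51) and DLL3 (-1.52) moved in the same direction relative to WT. DLL1 fell less in KO (2.59, SE 0.74, adjusted p = 0.0117). DLL3 and HES6 were each lost in 6 of 16 fits that left out 1 library, with the largest adjusted p of 0.128 for DLL3 without WT day 7 replicate 4 and 0.0596 for HES6 without WT day 3 replicate 2. By limma on log2(TPM + 1) DLL4 and HES6 passed, and NOTCH2 had an adjusted p of 0.841. In HET, 0 genes passed from day 0 to day 3 by edgeR (0.271% of all genes), and DESeq2 called 1 (DLL4) and limma on TPM 0. At an unadjusted p under 0.05 there were 5, and the share of all genes at that cut is not given here. From day 3 to day 7 in HET 2 passed (4.74% of all genes), DLL4 (-2.35, SE 0.56, adjusted p = 0.00942) and NOTCH2 (-2.77, SE 0.36, adjusted p = 9.65e-06).

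Other parts of the pathway were read from a list of 70 genes. At day 3, 22 of 67 tested differed between KO and WT, 16 higher and 6 lower, where 21.6% of all genes passed, with a median difference of 0.28 against -0.05 over all genes. Of 4 other ligands and ligand-like genes, 3 rose: JAG2, a Jagged ligand (38.6 ± 9.64 CPM in KO, 6.98 ± 2.84 in WT; SD, n = 4), DNER (1.88, SE 0.29) and DLK1 (2.04, SE 0.34). The receptor gene NOTCH3 fell like NOTCH2 (5.81 ± 2.61 CPM in KO, 20.2 ± 7.48 in WT; SD, n = 4; edgeR adjusted p = 0.0033), and so did HEYL, another HEY factor (-1.05, SE 0.18), while HES2, a HES gene, rose (8.06 ± 4.70 CPM in KO, 0.396 ± 0.164 in WT; SD, n = 4). CCND1, a cyclin gene among the listed targets, rose by 2.32 (SE 0.40), while SOX9 of the same list fell (-1.02, SE 0.25, edgeR adjusted p = 0.0114). Results of the alternatives for SOX9 are not given here. MIB1, the ubiquitin ligase that makes ligands active, rose by 0.81 (SE 0.17), and the RBPJ coactivator MAML3 by 0.92 (SE 0.18), while the related MAML2 fell (-0.94, SE 0.28, adjusted p = 0.0272). The MAML2 call was lost in 1 fit of all 36 libraries (adjusted p = 0.0699) and without WT replicate 2 or KO replicates 1 or 3 (largest adjusted p = 0.0893). By limma on log2(TPM + 1), NOTCH3 (adjusted p = 0.389), HEYL (0.616), MIB1 (0.138), MAML3 (0.213) and MAML2 (0.86) did not pass. TLE1, a co-repressor that HES proteins recruit, rose in KO (1.52, SE 0.18) and in HET (0.82, SE 0.18, adjusted p = 0.0238), though in HET 5 of 8 fits without 1 library lost it (largest adjusted p = 0.0964, without HET replicate 3).

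Proneural genes such as NEUROG2 switch on Delta genes, and their list here also held the zinc-finger genes INSM1 and MYT1. Of 7 genes of that list tested at day 3, 5 rose in KO (NEUROG1, NEUROD1, NEUROD4, INSM1 and MYT1). NEUROG2 fell by edgeR, although not by limma on log2(TPM + 1) (adjusted p = 0.245). INSM1 had 39.7 ± 11.8 CPM in WT, 167.1 ± 64.4 for HET and 257.3 ± 29.5 for KO (SD, n = 4; KO minus WT 2.71, SE 0.29, HET minus WT 2.06, SE 0.29). In HET 4 of 67 list genes rose (INSM1, NEUROD1, MYT1 and TLE1) and none fell, where 3.28% of all genes passed. At an unadjusted p under 0.05 there were 17, and the share of all genes at that cut is not given here. MYT1 (adjusted p = 0.048) was lost without each library but HET replicate 4 (largest adjusted p = 0.16), with DESeq2's size factors (0.0512), library size alone (0.0615) or the small RNA share as a covariate (0.0824). NEUROD1 was lost without WT replicates 1 (adjusted p = 0.0708) or 4 (0.0592) or HET replicate 3 (0.0634). By limma on log2(TPM + 1) the adjusted p of these 4 genes ran from 0.226 to 0.978. The NEUROG2 level at day 3 was 22182.6 ± 2307.2 CPM in WT, 16037.5 ± 1272.7 for HET and 8683.0 ± 1066.3 for KO (SD, n = 4; KO minus WT -1.34, SE 0.21, edgeR adjusted p = 0.000526). HET lay below all WT libraries without passing (-0.46, SE 0.20, adjusted p = 0.325), and passed with the block (SE 0.13, adjusted p = 0.0473). The counts do not separate the doxycycline-driven copy from the gene's own transcript. Total NEUROG2 counts were lower in KO than in WT at day 3 by edgeR, and their part in the differences above was not tested.

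At day 7, 29 of 69 list genes differed between KO and WT, 13 higher and 16 lower, where 32.6% of all genes passed. NOTCH3 (19.9 ± 5.48 CPM in WT, 2.76 ± 1.02 for HET, 1.55 ± 0.295 for KO; SD, n = 4) and HEYL (26.2 ± 6.30, 4.72 ± 2.45 and 1.07 ± 0.472 CPM) fell in both mutant genotypes, although HEYL in HET did not pass by limma on log2(TPM + 1) (adjusted p = 0.0609). NRARP, a Notch target that feeds back on the pathway, fell in KO (-1.29, SE 0.34, edgeR adjusted p = 0.0117; by limma 0.546), as did MFNG, a glycosyltransferase that modifies receptors (-3.11, SE 0.60, adjusted p = 0.00198). The ligand-like genes DNER, DLK1 and DLK2 rose in KO by 2.96, 2.34 and 2.38 (DLK2 by limma, adjusted p = 0.0864). MIB1, higher at day 3, was lower in KO (-0.88, SE 0.16, adjusted p = 0.00162; by limma 0.701). CCND1 was higher in KO (3.68, SE 0.82, adjusted p = 0.00453) and in HET (3.81, SE 0.82, adjusted p = 0.00882, by limma 0.0524). SOX9 had 4.72 ± 2.65 CPM in WT, 0.953 ± 0.538 in KO and 0.339 ± 0.0449 in HET (SD, n = 4). It was lower in KO (-2.27, SE 0.44, edgeR adjusted p = 0.002) and in HET (-3.78, SE 0.48, adjusted p = 0.000498). Both differences rest on low mutant levels. Of 7 genes of the proneural list 5 were now lower in KO, among them NEUROD1 (421.3 ± 65.3 CPM in WT and 11.8 ± 5.14 in KO, SD, n = 4), and MYT1 was higher. HES3, another HES gene, had 6.58 ± 2.99 CPM in KO and 0.0298 ± 0.0218 in WT (SD, n = 4; adjusted p = 0.000165) and was already higher in KO at day 0 (8.99 ± 2.21 against 4.00 ± 0.882 CPM, adjusted p = 0.0233). That day 0 call was lost in 1 fit of all 36 libraries (adjusted p = 0.508), by limma on log2(TPM + 1) (0.051) and without WT replicates 2 (0.0741) or 4 (0.0774) or KO replicate 3 (0.0765). In HET at day 7, 13 of 69 list genes differed, 5 higher and 8 lower, where 14.4% of all genes passed. KO minus HET gave 7 of 67 at day 3 (4.35% of all genes) and 4 of 69 at day 7 (1.40%).

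Markers of cell state moved with these genes. At day 3 all 6 neuron markers were higher in KO than in WT, and their summed level was 1163.6 to 1583.2 CPM in WT, 1624.3 to 4091.9 in HET and 3872.8 to 8213.4 in KO. In HET 2 of the 6 (STMN2 and ELAVL3) passed. Of 4 proliferation markers 2 were lower in KO at day 3 (TOP2A and CDK1), and all 4 were lower in KO and in HET at day 7, when they summed to 22.7 to 167.0 CPM in WT, 9.37 to 15.8 in HET and 10.3 to 11.8 in KO. The 5 pluripotency markers summed at day 7 to 48.4 to 80.2 CPM in WT, 75.3 to 204.6 in HET and 269.9 to 323.8 in KO, with LIN28A and DNMT3B higher and SOX2 lower in KO. NANOG was at or under 3 counts in all WT libraries of day 7, and POU5F1 in all KO libraries. Endothelial markers, of interest because DLL4 and NOTCH genes are active in vessels, summed to 3.09 to 12.1 CPM at day 3 and 0.529 to 5.12 at day 7, with 1 of 4 (CDH5) higher in KO at day 3. The 5 neural progenitor markers summed at day 3 to 1101.8 to 1567.9 CPM in WT, 1091.5 to 1393.1 in HET and 761.4 to 1177.8 in KO, with VIM lower in KO and PAX6 higher in HET. At day 7 they summed to 722.8 to 815.3 CPM in WT, 562.5 to 843.7 in HET and 424.9 to 489.2 in KO, with PAX6 and SOX1 lower in KO and SOX1 lower in HET. Fibroblast markers summed at day 3 to 243.5 to 549.9 CPM in WT, 145.9 to 852.3 in HET and 77.3 to 247.0 in KO. None of the 5 passed in KO at day 3 by edgeR, and 2 had an unadjusted p under 0.05. The share of all genes at that cut is not given here. At day 7 the fibroblast markers summed to 32.8 to 61.1 CPM in WT, 6.40 to 39.3 in HET and 4.68 to 6.03 in KO. The part of these shifts in the Notch gene differences was not tested.

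**Figure D4:**
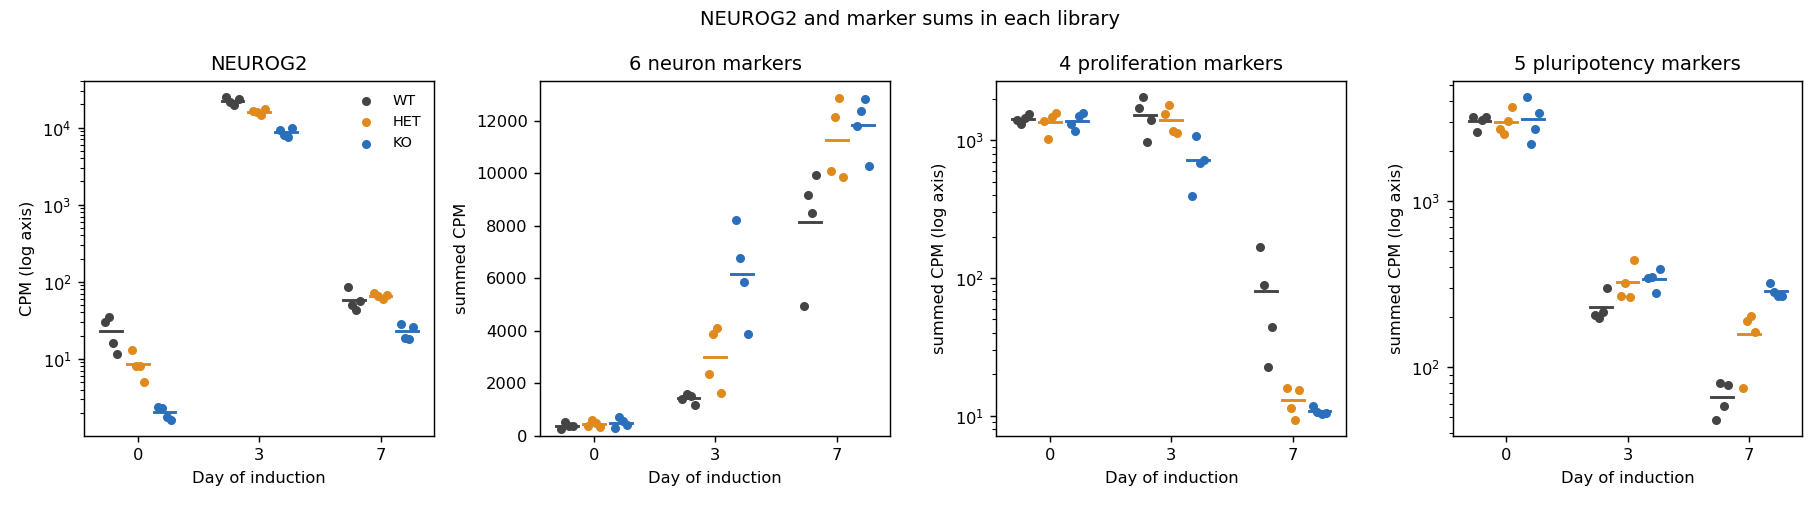
NEUROG2 in CPM and the summed CPM of 6 neuron, 4 proliferation and 5 pluripotency markers in each library by day (log axes except for neuron markers); points are libraries and bars are means of 4. At day 3 NEUROG2 is lowest in KO, at a mean of 8683.0 CPM against 22182.6 in WT, while the neuron marker sum is highest in KO.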

How the data were processed

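Ribosomal-RNA-depleted total RNA of 36 libraries was sequenced as paired reads of 151 bases, per the labels. The deposited tables hold expected counts (all whole numbers) and TPM per gene, made by the authors with cutadapt 4.8, STAR 2.7.8a and RSEM 1.3.3 on GRCh38, per the submitters' processing notes. Replicates were not pooled by the authors. Of 62714 features, 4 reporter sequences (at most 0.0171% of a library) were left out. The expected counts as deposited were tested with edgeR 4.0.16 (TMM, filterByExpr, quasi-likelihood F test) in R 4.3.3, with Benjamini-Hochberg adjustment over all genes tested and a threshold of 0.05. Each day was fitted on its 12 libraries, the WT course on the 12 WT libraries, and changes over time between genotypes on all 36. All adjusted p-values come from edgeR unless another tool is named. CPM was computed from each library's total count, without TMM factors. The scripts were tested on simulated data.

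Alternatives were DESeq2 1.42.0 (its test and its size factors), library size alone, no filter, limma 3.58.1 on log2(TPM + 1) and log2(TPM + 0.1) with a mean TPM of at least 0.1, the replicate number as a block, the share of 5 small structural RNAs as a covariate, all 36 libraries in 1 fit, and each library left out. Deviations from the group mean correlated between all 4 same-numbered pairs by over 0.1 in KO and WT at day 0 (0.293 to 0.714) and day 3 (0.136 to 0.598) and in HET and WT at day 3 (0.17 to 0.802). Not all other comparisons met this, among them KO and HET at day 3 (-0.103 to 0.698). Where it was met, the numbers were taken to pair the samples, which is an assumption. Against WT, the closest match carried the library's own number for 4 of 4 KO libraries at day 0. At day 3 it did so for 3 of 4 KO libraries and 2 of 4 HET libraries. Named with values were all 10 genes, NEUROG2, and of each other pathway list up to 3 genes per comparison with WT, those with the smallest adjusted p among genes past the threshold and with a mean of at least 1 CPM in the higher group. The text gives some of these, chosen after their values were seen, and a gene named without a value is one that a count holds. The genes and lists were chosen with earlier results of these data known.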

Additional observations from a re-analysis of the deposited data

Results flagged for a closer look

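In 12 of 90 groups of 4 libraries, 1 library lay far from the other 3 in CPM, where chance alone gives about 4.5 (1 in 20). At day 3, replicate 4 was the library apart in 7 of them, and it also had the lowest neuron marker sum of each genotype, as given above. For DLL1 it had 279.1 CPM in WT (others 110.0 to 137.2) and 205.9 in HET (others 31.7 to 55.4). For HES1 it had 12.7 CPM in WT (others 1.68 to 3.49), 8.60 in HET (others 0.00 to 0.684) and 0.482 in KO (others 0.00 to 0.0764). In HET it also had 1613.9 CPM of DLL3 (others 1077.8 to 1140.8) and 38.8 of JAG1 (others 12.9 to 15.9). KO day 3 replicate 3 had 2.37 CPM of HES5 (others 0.780 to 1.03). At day 0, HET replicate 2 had 231.8 CPM of NOTCH1 (others 172.9 to 181.0) and HET replicate 4 had 233.6 of NOTCH2 (others 338.5 to 354.6). At day 7, KO replicate 1 had 10.3 CPM of DLL1 (others 15.8 to 16.8) and HET replicate 1 had 378.7 of HES6 (others 21.2 to 34).

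The change over time differed between a mutant genotype and WT, by the test of the difference itself in edgeR, in 16 cases. From day 0 to day 3 the KO change minus the WT change was 1.70 for DLL3, -5.09 for HES1, 3.16 for DLL4, -1.90 for NOTCH2, 3.25 for HES5 and -2.38 for DLL1. From day 3 to day 7 it was -1.52 for DLL3, -2.64 for JAG1, -3.53 for DLL4, -3.48 for NOTCH2, -2.51 for HES6, -2.85 for NOTCH1, -3.72 for HES5 and 2.59 for DLL1. The HET change minus the WT change from day 3 to day 7 was -2.35 for DLL4 and -2.77 for NOTCH2.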

How the results depend on the processing

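Of the 52 calls on the 10 genes over 15 comparisons, 22 stayed past the threshold under each alternative run. No direction was reversed under an alternative among 2005 values of called genes (these and other pathway genes named). Among those 22 were DLL4, HES5 and HEY1 in KO at day 3 and NOTCH2 in KO and HET at day 7.

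Counts of genes past the threshold moved by over 1.5 times as follows, and the cause was not tested. With DESeq2's test there were 1 (KO; 4.41% of all genes) and 1 (HET; 3.18%) at day 0, 3 in HET at day 7 (19.9%) and 1 for the HET change from day 0 to day 3 (0.791%). With all 36 libraries in 1 fit there were 1 for HET at day 0 (1.15%), 2 for KO minus HET at day 3 (7.22%) and 3 at day 7 (3.84%). With limma on log2(TPM + 1) there were 3 for KO and 0 for HET at day 3, 0 for KO minus HET at days 3 and 7, 2 for KO at day 7, 1 for the KO change up to day 3, 2 for that after day 3, and 0 for the HET change after day 3. With log2(TPM + 0.1) there were 0 for HET and for KO minus HET at day 3, 3 for KO and 0 for KO minus HET at day 7, 2 and 3 for the KO changes, and 0 for the HET change from day 3 to 7. In these limma fits 0.146% to 6.17% of all genes passed. The zeros stand beside the edgeR counts in the text. On log2(TPM + 1) the median of all genes shifted by 0.20 (KO minus WT) and 0.13 (HET minus WT) for day 3, and by 0.16 and 0.42 for day 7. With library size alone, or with the small RNA share as a covariate, there were 2 for HET at day 7 (14.4% and 10.7% of all genes), and with the covariate 1 for the HET change from day 0 to 3 (0.432%).

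With the replicate block, KO minus HET gave 3 at day 3 (12.7% of all genes) and 2 at day 7 (1.81%), where the numbers were not taken to pair the samples. They were taken to pair KO and WT at days 0 and 3, and HET and WT at day 3. There the block changed no call on the 10 genes beside those of day 3 given in the text. The block added HEY1 to the KO change from day 0 to 3, where it also joins different days, whose numbers were not taken to pair the samples.

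With 1 library left out, the counts are given with the share of all genes that passed in the same fits. At day 3 they ran from 4 to 6 for KO (14.6% to 26.4%) and 1 to 4 for HET (1.74% to 6.43%). KO minus HET at day 3 gave 0 to 1 (1.51% to 5.63%). At day 7 they ran from 4 to 6 for KO (23.4% to 31.8%) and 1 to 3 for HET (7.63% to 34.6%). KO minus HET at day 7 gave 1 (0.654% to 2.81%). The KO changes gave 3 to 6 up to day 3 (5.22% to 12.4%) and 6 to 8 after it (15.5% to 18.8%). The HET change from day 3 to 7 gave 2 to 3 (2.89% to 9.32%). HES1 and HES5 rest on few counts after day 0, which limits what these libraries show for them.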

Other observations

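From day 0 to day 3 in WT, 27 of 69 genes of the wider pathway list rose and 25 fell by edgeR's test, where 60.0% of all genes passed. HEYL rose from 4.23 ± 0.554 to 84.4 ± 15.2 CPM and HES4 from 2.42 ± 0.923 to 44.8 ± 9.69 (SD, n = 4), while the receptor gene NOTCH3 fell from 324.4 ± 55.8 to 20.2 ± 7.48 CPM and the feedback gene NRARP from 35.5 ± 7.08 to 7.59 ± 1.45. MFNG, which modifies receptors, rose from 2.77 ± 0.911 to 141.2 ± 35.9 CPM, and MIB1, which makes ligands active, from 224.3 ± 9.03 to 661.4 ± 69.0. From day 3 to day 7, 25 rose and 11 fell, where 46.2% of all genes passed, with NEUROD1 rising from 22.2 ± 5.11 to 421.3 ± 65.3 CPM and the co-repressor gene TLE1 from 34.3 ± 5.56 to 190.1 ± 71.0.

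Of 13414 genes with a mean of at least 5 CPM in at least 1 group, those whose log2(CPM + 1) followed a gene of the set most closely over the 36 libraries were CDCA7L (Pearson r = 0.984) and SMO (0.982) for NOTCH2, PLPP7 (0.978) and CLMN (0.968) for DLL3, TMEM120B (0.973) for DLL4, FAM83G (0.971) for HES1, FAM78A (0.970) for HES6, NELFCD (0.951) for NOTCH1, CMTR1 (0.926) for DLL1, AMER2 (0.900) for HEY1, MN1 (0.897) for JAG1 and NCKAP5 (0.863) for HES5. These are descriptions over libraries that fall into 3 days, so that genes sharing the course of the induction correlate.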
